A study of Arabidopsis thaliana with 8 samples.

Results

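The genes described here are 9 core DNA replication genes of Arabidopsis thaliana: the 6 subunit genes of the MCM2 to MCM7 replicative helicase, the helicase loader gene CDC6, and the sliding clamp genes PCNA1 and PCNA2. They were picked by locus identifier out of 27628 loci in the deposited tables, and all 9 had enough reads to be tested. The transcript levels come from RNA sequencing of whole Col-0 seedlings that grew for 4.5 days in blue light, after 3 days in the cold at 4 degrees and 12 h of white light, on medium with 1% sucrose. The groups were wild type (WT), the agb1-2 mutant (called agb1 here), a hy5 mutant whose allele is not stated, and the cry1 cry2 double mutant, with 2 libraries labelled as biological replicates in each. AGB1 encodes the G protein beta subunit, HY5 a transcription factor of light-dependent development, and CRY1 and CRY2 blue-light receptors. The series was designed to compare genes under cryptochrome and HY5 signalling with genes under G protein signalling. The values below give the transcript levels of DNA replication genes in each of these mutants.

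Before a plant cell copies its DNA, the origin recognition complex marks replication origins, and CDC6 together with CDT1 loads the ring of MCM2 to MCM7 onto the DNA. In S phase this ring, joined by CDC45 and the GINS complex, becomes the helicase that unwinds the double strand. PCNA then encircles the DNA behind it and holds DNA polymerases in place. The genes for these proteins are known as targets of E2F transcription factors, which are held back by the retinoblastoma protein RBR1 until D-type cyclins release them. In a seedling, such transcripts come mostly from dividing cells of the meristems and young leaves and from cells that copy their DNA without dividing.

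The libraries held between 15651218 and 23098347 reads, and the 9 genes together held 1058 to 2037 of these, and CDC6 was the scarcest. Levels are given as CPM, counts scaled to library size, after TMM scaling, which corrects for a few abundant genes taking a larger share of a library. CDC6 had 55 and 59 reads in WT, 63 and 55 in agb1, 17 and 21 in hy5, and 30 and 42 in cry1 cry2. As a check of the labels, reads of CRY2 numbered 5006 and 4256 in WT but 3 and 4 in the double mutant. CRY1 fell less there, from 4531 and 3865 reads in WT to 1488 and 1376 (log2 fold change -1.32 ± 0.06 (SE), adjusted p = 2.51e-18, edgeR). AGB1 fell in agb1 (log2 fold change -0.67 ± 0.07, adjusted p = 2.73e-08, edgeR). HY5 itself had 14.0 and 14.9 CPM in the libraries labelled hy5 while WT had 15.9 and 14.9 CPM (a log2 difference of -0.09 ± 0.10, adjusted p = 0.488), so its reads do not check that label.

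The members lie on 4 chromosomes (TAIR10.1). MCM2 (AT1G44900) is at chromosome 1, bases 16970214 to 16974753, on the plus strand, and MCM3 (AT5G46280) is at chromosome 5, bases 18769649 to 18773706, on the minus strand. MCM4 (AT2G16440) and MCM5 (AT2G07690) lie on the minus strand of chromosome 2, at bases 7126279 to 7130729 and 3522984 to 3527500. MCM6 (AT5G44635) lies at chromosome 5, bases 18006212 to 18010667, minus strand. MCM7 (AT4G02060), named PRL in RefSeq after the mutant prolifera, lies at chromosome 4, bases 900636 to 905591, plus strand. CDC6 (AT2G29680) and PCNA2 (AT2G29570) are near each other on chromosome 2, at bases 12689171 to 12693121 on the plus strand and 12649906 to 12651753 on the minus strand. PCNA1 (AT1G07370) is at chromosome 1, bases 2263037 to 2264553, plus strand. The ends of MCM7 and PCNA2 overlap expressed genes on the other strand, STP7 and ENOC, but share 0 coding bases with them. Strand-specific counting is not stated.

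The 6 helicase subunits are related proteins, and any pair of them was identical at 33.5% to 38.8% of aligned residues. Their longest shared run of identical coding bases was 11 to 20, so reads of one subunit would rarely match another. The clamp genes are much closer. PCNA1 and PCNA2 code for 263 and 264 residues that were 97% identical, differing at 8 residues, and their longest identical run of coding bases was 41. How reads matching both PCNA genes were placed is not given, and the split of reads between PCNA1 and PCNA2 is therefore less certain than the level of any MCM gene.

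Upstream sequences of the helicase genes are shown because 5 of the 9 members carried a word bound by E2F factors in the 250 bases before the annotated start. The words searched, on both strands, were TTTCCCGC, TTTGGCGC, TTTGCCGC and TTTCGCGC, and 1.41% of 27443 protein-coding genes held at least 1 of them in the same window. The stretches below are from TAIR10.1, read 5′ to 3′ along the gene, with the E2F word (or its reverse complement) in capitals. MCM2 is from chr1:16970180-16970213 (plus strand), MCM3 from chr5:18773849-18773896, MCM4 from chr2:7130737-7130784, MCM5 from chr2:3527501-3527539 and MCM6 from chr5:18010686-18010733 (all minus strand).
MCM2: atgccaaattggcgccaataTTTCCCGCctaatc
MCM3: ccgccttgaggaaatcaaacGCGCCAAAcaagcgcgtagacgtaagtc
MCM4: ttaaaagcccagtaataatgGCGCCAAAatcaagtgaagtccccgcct
MCM5: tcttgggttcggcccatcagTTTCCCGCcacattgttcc
MCM6: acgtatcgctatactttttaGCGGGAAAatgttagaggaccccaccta

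The word starts at -14 in MCM2, -19 in MCM5, -35 in MCM4, -46 in MCM6 and -170 in MCM3, counted from the annotated start. MCM2 and MCM5 carry the same word in the same orientation, MCM6 carries it reversed, and MCM3 and MCM4 share TTTGGCGC reversed. Those 5 genes and PCNA2 also held the site II word TGGGCC or TGGGCT, known from genes active in dividing cells, which 19.2% of all promoters held. PCNA1 held the telo box AAACCCTA (4.49% of promoters), and MCM7 and CDC6 held none of these words. The G-box CACGTG, the classical word bound by HY5, was in 0 of the 9 windows and in 6.49% of all promoters. With a share that low, 0 of 9 is not a result about the members. Words that share only the ACGT core of the G-box were not searched. All these hits are matches of letters in 1 window, and binding of any factor was not measured.

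**Figure D1:**
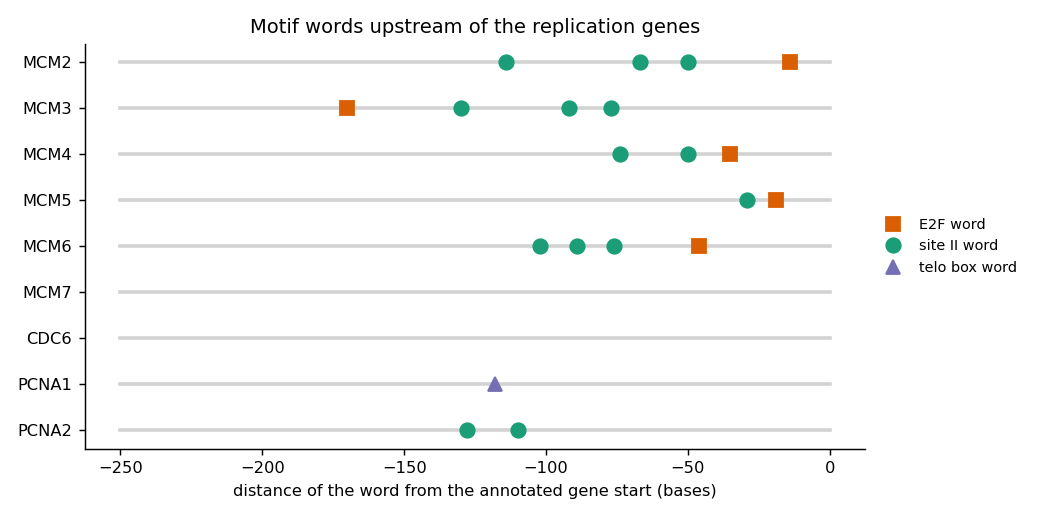
Position of each motif word in the 250 bases upstream of the 9 genes, as distance in bases from the annotated gene start (x axis), with 1 grey line per gene. Squares are E2F words, circles site II words and the triangle a telo box; the E2F words of MCM2, MCM4, MCM5 and MCM6 lie between -46 and -14, and that of MCM3 at -170.

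In hy5, transcripts of the helicase, its loader and 1 clamp gene fell. MCM2 to MCM7 all fell, by 1.46-fold to 1.76-fold, CDC6 fell 2.63-fold and PCNA2 1.24-fold, while PCNA1 did not pass the test. Thus 8 of 9 members were called lower at a Benjamini-Hochberg adjusted p under 0.05 in edgeR's quasi-likelihood test, where 42.9% of all 20695 genes tested were called, 4189 of them (20%) lower. The median log2 fold change was -0.61 over the 9 members and -0.0011 over all genes. In whole seedlings, fewer replicating cells and less RNA per cell cannot be told apart.

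MCM2 had 11.9 and 13.2 CPM in WT, 12.7 and 13.3 in agb1, 8.15 and 6.23 in hy5, and 13.2 and 11.2 in cry1 cry2. The hy5 libraries stood below all 6 others, and MCM2 fell by 0.81 ± 0.13 on the log2 scale in hy5 (adjusted p = 7.69e-06, edgeR), the largest fall among the subunits.

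MCM4, which with MCM6 and MCM7 forms the core of the helicase motor, had 12.5 and 9.20 CPM in WT, 12.4 and 13.4 in agb1, 6.69 and 6.23 in hy5, and 12.6 and 12.7 in cry1 cry2. Its WT libraries differed more than those of any other subunit, yet both stayed above both hy5 libraries. The change in hy5 was -0.76 ± 0.14 (adjusted p = 4.98e-05, edgeR).

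MCM5, the partner of MCM2 at the gate through which the ring opens, had 12.3 and 13.4 CPM in WT, 13.5 and 13.7 in agb1, 9.03 and 7.90 in hy5, and 11.2 and 11.2 in cry1 cry2. It fell by 0.61 ± 0.11 on the log2 scale in hy5 (adjusted p = 7.89e-05, edgeR). Again no hy5 library reached the lowest of the other 6.

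MCM6 was the scarcest subunit, with 6.53 and 5.98 CPM in WT, 6.15 and 6.39 in agb1, 3.70 and 4.46 in hy5, and 6.09 and 7.09 in cry1 cry2. Its change in hy5 was -0.61 ± 0.16 (adjusted p = 0.003, edgeR). MCM7 had 15.1 and 16.5 CPM in WT, 17.8 and 17.4 in agb1, 11.0 and 10.6 in hy5, and 18.4 and 15.2 in cry1 cry2, and changed by -0.55 ± 0.11 in hy5 (adjusted p = 0.000144, edgeR). For both genes the hy5 pair lay below the other 6 libraries.

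MCM3 had 9.43 and 9.92 CPM in WT, 11.0 and 8.93 in agb1, 6.22 and 6.94 in hy5, and 7.86 and 8.05 in cry1 cry2. As for MCM5, both cry1 cry2 libraries lay between those of WT and those of hy5. It fell by 0.55 ± 0.13 in hy5 (adjusted p = 0.00136, edgeR), and its change of -0.28 ± 0.13 in cry1 cry2 did not pass (adjusted p = 0.0734, edgeR). Counting only the transcript model with most reads, the calls in hy5 were lost for MCM3 (-0.43, adjusted p = 0.103, edgeR) and MCM6 (-0.52, adjusted p = 0.0578); over all alternatives run the adjusted p ran from 0.000226 to 0.103 for MCM3 and from 0.000911 to 0.0578 for MCM6.

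CDC6, an ATPase that works with the origin recognition complex to load the ring, showed the widest range. It had 2.46 and 3.02 CPM in WT, 3.56 and 3.78 in agb1, 0.997 and 1.06 in hy5, and 1.66 and 2.38 in cry1 cry2. Each genotype's pair was apart from the others, in the order agb1, WT, cry1 cry2, hy5. Of the steps between neighbours in that order, cry1 cry2 against hy5 was called (hy5 lower, -0.96 ± 0.31, adjusted p = 0.0112, edgeR), whereas agb1 against WT (0.42 ± 0.22, adjusted p = 0.22, edgeR) and cry1 cry2 against WT (-0.43 ± 0.24, adjusted p = 0.145) were not. Its change in hy5 against WT was -1.39 ± 0.28 (adjusted p = 0.000173, edgeR).

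PCNA2, one of the clamp genes, had 14.2 and 13.8 CPM in WT, 13.6 and 13.0 in agb1, 10.3 and 12.2 in hy5, and 13.1 and 13.0 in cry1 cry2. It fell by 0.31 ± 0.11 in hy5 (adjusted p = 0.0209, edgeR), but this call was lost with DESeq2 (adjusted p = 0.125), without WT replicate 1 (adjusted p = 0.101, edgeR), without WT replicate 2 (0.0523) and without hy5 replicate 1 (0.222), and over all alternatives run its adjusted p ran from 0.00995 to 0.222.

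PCNA1 had 6.70 and 7.11 CPM in WT, 6.09 and 6.80 in agb1, 6.04 and 5.42 in hy5, and 8.42 and 6.97 in cry1 cry2. Its change in hy5 was -0.27 ± 0.15 (adjusted p = 0.146, edgeR), with a 95% interval from -0.58 to 0.03 that includes falls as large as those of MCM3 and MCM7. Whether the clamp genes differ from the helicase genes in their response was not tested.

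**Figure D2:**
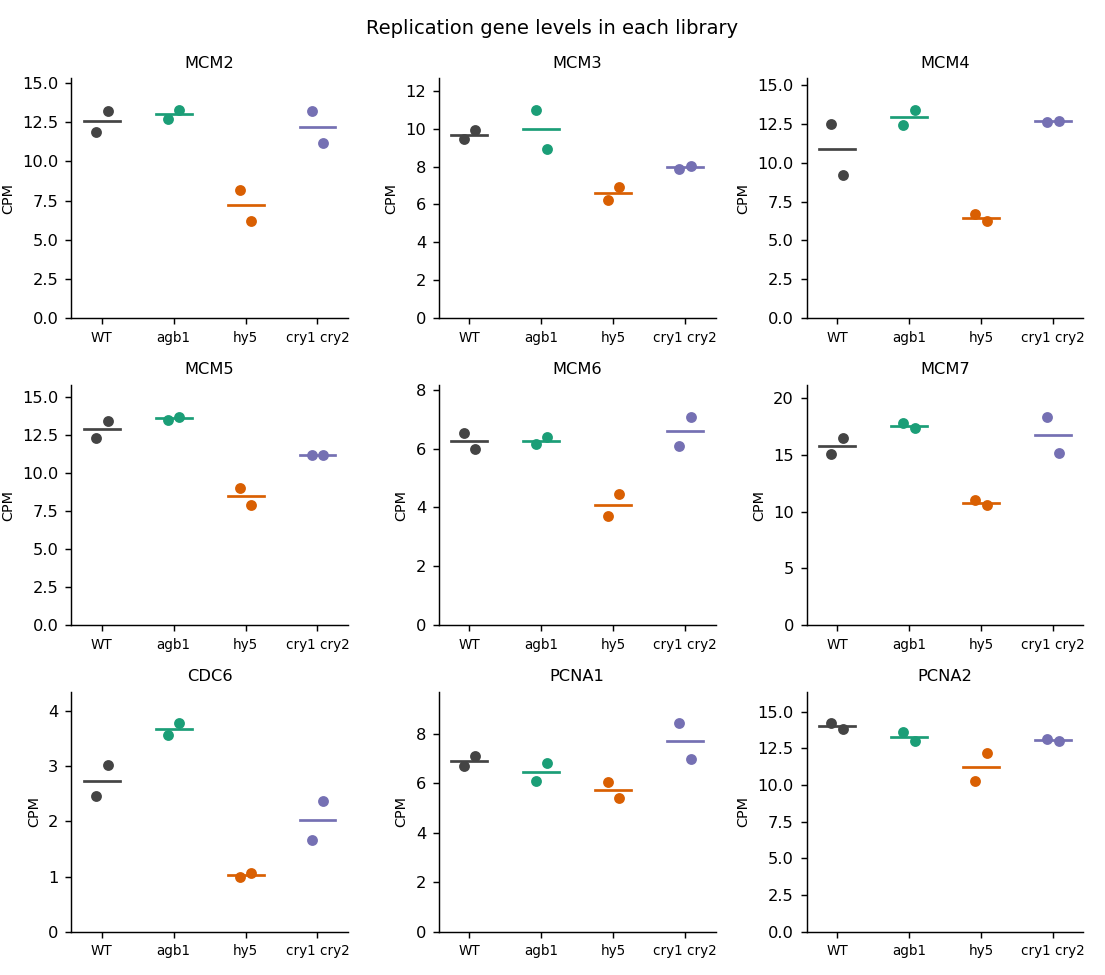
Level of each of the 9 genes in CPM (y axis, starting at 0) in the 2 libraries of each genotype (points), with the mean as a line. In every panel both hy5 points lie below all points of the other 3 genotypes; for PCNA1 the pairs come close, at 6.04 CPM in hy5 and 6.09 in agb1.

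For all 9 members both hy5 libraries were below both WT libraries, below both agb1 libraries and below both cry1 cry2 libraries. Over all genes tested this was so for 34.8%, 36.4% and 34.9% respectively. The summed reads of MCM2 to MCM7 show the same in units of the whole library: they took 65.59 and 67.6 CPM without TMM scaling in WT, 69.12 and 68.11 in agb1, 43.94 and 41.7 in hy5, and 76.52 and 73.06 in cry1 cry2. The TMM factors of the cry1 cry2 libraries were the highest of the 8, which brings their scaled values back to near WT.

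In agb1, no replication gene passed the test against WT. edgeR called 0 of 9 members, with 0 at an unadjusted p under 0.05 and 0 by DESeq2, against 17.2% of all genes called. The log2 fold changes ran from -0.10 (PCNA1) to 0.42 (CDC6), with a median of 0.05 (all genes -0.0027). The 95% intervals of the 6 MCM genes had lower ends between -0.32 (MCM6) and -0.02 (MCM4), which exclude falls as large as each gene's estimate in hy5. The upper ends reached 0.49 (MCM4) and, for CDC6, whose agb1 libraries were both above both WT libraries, 0.88, so that rises of that size are not excluded. MCM4 (0.24 ± 0.12) had an adjusted p of 0.227 in edgeR, and was called higher without WT replicate 1, the higher of its WT libraries (0.48, adjusted p = 0.0276, edgeR).

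In cry1 cry2, edgeR likewise called 0 of 9 members, with 1 (MCM3) at an unadjusted p under 0.05 and 0 by DESeq2. This was a comparison in which 51.4% of all genes were called. The log2 fold changes ran from -0.43 (CDC6) to 0.21 (MCM4), with a median of -0.04 (all genes 0.0010). MCM2 (-0.04 ± 0.12), MCM3, MCM5 (-0.20 ± 0.11), CDC6 and PCNA2 (-0.10 ± 0.10) had negative values, while MCM4, MCM6 (0.07 ± 0.15), MCM7 (0.09 ± 0.10) and PCNA1 (0.16 ± 0.14) had positive ones, none of which passed. Without WT replicate 1, MCM4 was called higher here too (0.46, adjusted p = 0.0109, edgeR). With library sizes alone, which raises the median of all genes in cry1 cry2 by 0.18, MCM4, MCM7 and PCNA1 were called higher.

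**Figure D3:**
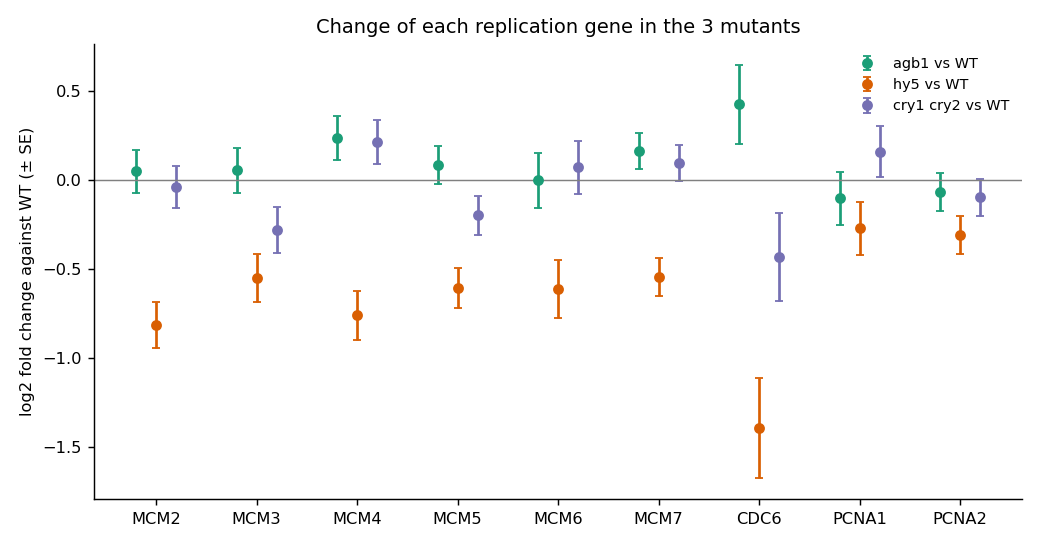
Log2 fold change against WT of each of the 9 genes (points) with its standard error (bars) in agb1, hy5 and cry1 cry2. The hy5 values of the 6 MCM genes lie between -0.81 and -0.55 and that of CDC6 at -1.39, whereas the agb1 and cry1 cry2 values lie between -0.43 and 0.42.

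The mutants were also compared directly, which tests the difference between them. agb1 was higher than hy5 for 7 members, where 24.2% of all genes were called higher: the 6 MCM genes, from 0.60 ± 0.14 (MCM3, adjusted p = 0.000589, edgeR) to 0.99 ± 0.14 (MCM4, adjusted p = 7.48e-07), and CDC6, which was 3.53-fold higher (1.82 ± 0.28, adjusted p = 2.5e-06). PCNA1 (0.17 ± 0.16) and PCNA2 (0.24 ± 0.11, adjusted p = 0.0753, edgeR) did not pass, although PCNA2 was called without hy5 replicate 2 (adjusted p = 0.0248). The MCM6 call was lost with the model with most reads (adjusted p = 0.0829, edgeR).

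hy5 was also lower than cry1 cry2 for 7 members, where 20.6% of all genes were called lower. MCM4 was 1.96-fold lower (-0.97 ± 0.14, adjusted p = 9.6e-07, edgeR), and MCM2 (-0.77 ± 0.13), MCM6 (-0.68 ± 0.17), MCM7 (-0.64 ± 0.11), MCM5 (-0.41 ± 0.12), CDC6 and PCNA1 (-0.43 ± 0.15, adjusted p = 0.0203, edgeR) were called as well. MCM3 (-0.27 ± 0.14, adjusted p = 0.129, edgeR) and PCNA2 (-0.21 ± 0.11, adjusted p = 0.13) were not, but both were called with library sizes alone, which lowers the median of all genes here to -0.18, and PCNA2 also without hy5 replicate 2 (adjusted p = 0.0448). The PCNA1 call was lost without cry1 cry2 replicate 1 (adjusted p = 0.257, edgeR), without hy5 replicate 2 (0.149) and with DESeq2 (0.12). The CDC6 call was lost without hy5 replicate 1 (adjusted p = 0.0556, edgeR), without cry1 cry2 replicate 2 (0.171) and with the model with most reads (0.463), and the MCM5 call without hy5 replicate 2 (0.0966), with DESeq2 (0.0505) and with the model with most reads (0.0517).

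Between agb1 and cry1 cry2, 3 members were higher in agb1: CDC6 by 1.81-fold (0.86 ± 0.24, adjusted p = 0.00339, edgeR), MCM3 (0.33 ± 0.13, adjusted p = 0.0348) and MCM5 (0.28 ± 0.11, adjusted p = 0.0331). In this comparison 28.8% of all genes were called higher, close to the share of members. The MCM3 and MCM5 calls were lost with DESeq2 (adjusted p = 0.136 and 0.13), with library sizes alone (0.584 and 0.792), without agb1 replicate 1 (0.444 and 0.0922) and without cry1 cry2 replicate 2 (0.0761 and 0.0982), and the MCM5 call also without agb1 replicate 2 (0.1) and with the model with most reads (0.194). PCNA1 (-0.26 ± 0.15, adjusted p = 0.138, edgeR) was called lower in agb1 with library sizes alone (adjusted p = 0.00413). Without cry1 cry2 replicate 1, none of the 3 was called, CDC6 having an adjusted p of 0.068 in edgeR.

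Levels per gene can be set side by side only per length, for which the deposited RPKM (reads scaled to coding length and to the library total) was summed over the models of each gene. In WT, PCNA2 was the most abundant at 17.3 ± 0.101 RPKM (SD, n = 2), followed by PCNA1 at 8.56 ± 0.483 and MCM7 at 7.20 ± 0.577. MCM5 had 5.79 ± 0.456, MCM3 4.63 ± 0.196, MCM2 4.39 ± 0.39 and MCM4 4.17 ± 0.827 RPKM. MCM6, at 2.42 ± 0.109, and CDC6, at 1.71 ± 0.282, came last. The WT libraries of MCM3, MCM2 and MCM4 overlapped, so that their order is not resolved, and the others did not overlap with their neighbours in this order.

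In hy5 the mean RPKM was 13.9 for PCNA2, 7.13 for PCNA1, 4.94 for MCM7, 3.82 for MCM5, 3.12 for MCM3, 2.52 for MCM2, 2.50 for MCM4, 1.59 for MCM6 and 0.649 for CDC6. The order of the means was thus the same as in WT, with every level lower. The 6 subunits form a ring with 1 copy of each, while their transcripts spanned from 2.42 to 7.20 RPKM in WT.

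**Figure D4:**
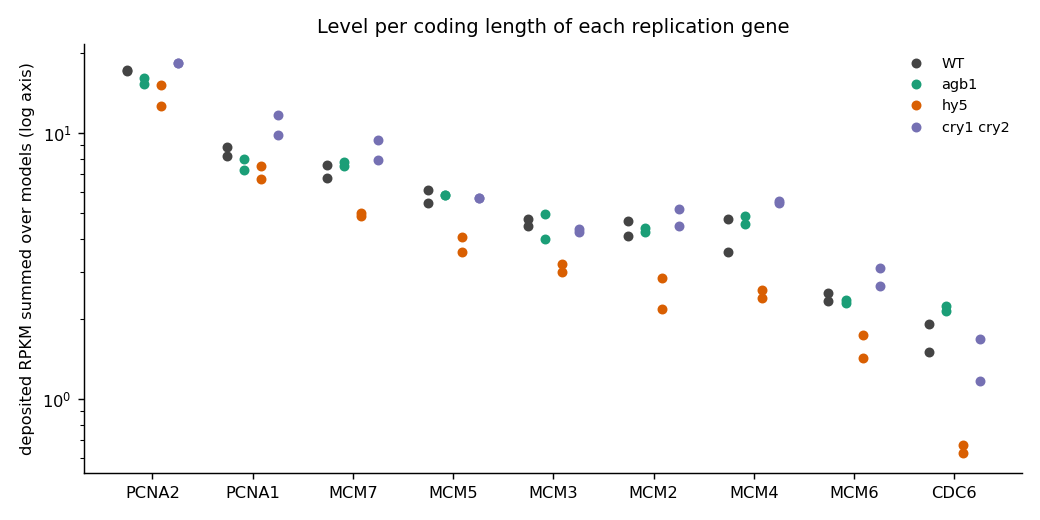
Deposited RPKM of each gene, summed over its transcript models, on a log axis, in the 2 libraries of each genotype; genes are ordered by their WT mean. PCNA2 leads at 17.3 RPKM in WT and CDC6 is last at 1.71, and for each gene but PCNA1 the hy5 points are the lowest.

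Several members have more than 1 transcript model in the tables: 4 for MCM3 and 2 each for MCM2, MCM5, MCM6, MCM7 and CDC6. Where 2 models have the same coding bases, the deposited counts behave as if each read had been given to 1 of them at random. Each such pair was counted once per library in which it had 100 or more reads, which gave 15938 cases. Of these, 2.1% had equal counts and 99.4% were within 1.5-fold, and the differences had 0.97 to 1.04 times the spread of a binomial split. Sums over models with the same coding bases therefore do not count such a read more than once. Among the members, MCM7 has 2 models of equal coding length (2151 bases). The models of MCM2, MCM3, MCM5, MCM6 and CDC6 differ in coding length, so this check did not cover them. The split between models of a member was not read as an isoform ratio.

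The 6 subunits followed one another over the 8 libraries. The correlation of each subunit's log2 CPM with the mean of the other 5 was 0.934 for MCM2, 0.793 for MCM3, 0.895 for MCM4, 0.923 for MCM5, 0.869 for MCM6 and 0.945 for MCM7. Against the mean of MCM2 to MCM7 it was 0.909 for CDC6, 0.809 for PCNA2 and 0.640 for PCNA1. These coefficients describe 8 libraries of which the hy5 pair stands apart, and they mostly record that step.

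Of all tested loci, 517 (2.5%) had a coefficient of 0.9 or more with the MCM mean. The 5 most alike outside the members were ftsh3 (AT2G29080, 0.998), a mitochondrial protease gene, AT5G06645 (0.996), FLS2 (AT5G46330, 0.996), the receptor for bacterial flagellin, AT1G29470 (0.995) and AT5G04960 (0.994). As an example, FLS2 had 39.4 and 38.4 CPM in WT, 44.4 and 43.5 in agb1, 24.5 and 24.5 in hy5, and 40.4 and 39.3 in cry1 cry2. It shows the profile of the subunits with tighter replicates.

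Other genes that act at origins fell in hy5 as well. Of 14 origin licensing partners, all tested, 9 were lower and 1 higher, with a median log2 fold change of -0.56; over all genes 20% were called lower and 22.6% higher. By the rule for named genes these were led by ORC1B, a subunit of the origin recognition complex (-0.89 ± 0.17, adjusted p = 8.48e-05, edgeR), and ORC5 (-0.57 ± 0.13, adjusted p = 0.000558). The others, named after their values were seen, were ORC2, ORC1A, ORC3, ORC4, the MCM loading factor CDT1A, MCM10, which works at helicase activation, and the MCM-binding ETG1, at -1.20 to -0.41. ORC2 (8 and 11 reads in hy5) and ORC1A (11 and 9) were scarce. Named in the same way, MCM9 was the gene that was higher (0.37), and CDC6B, another CDC6 gene, was at -0.15 and did not pass. CDT1B, another CDT1 gene, was at -0.03 and did not pass either. The count of 9 fell to 3 without hy5 replicate 2, to 4 without WT replicate 2 and to 4 with DESeq2.

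Among the same 14 genes, 0 were higher and 1 lower in agb1 (ORC4, -0.51 ± 0.16, adjusted p = 0.0226, edgeR), where 8.76% of all genes were called higher and 8.41% lower. That call was lost with DESeq2, with the model with most reads, without WT replicate 2 and without either agb1 library. In cry1 cry2, 0 were higher and 2 lower (ORC5, -0.47 ± 0.13, and ORC4, -0.36 ± 0.15), where 25.6% of all genes were called higher and 25.8% lower. These 2 became 0 without WT replicate 1 and 1 with DESeq2, library sizes alone, the model with most reads, the replicate block, the compared genotypes alone or any other library left out except the hy5 pair. Their summed level was 63.5 and 66.0 CPM in WT, 59.3 and 61.9 in agb1, 48.5 and 46.2 in hy5, and 57.9 and 59.7 in cry1 cry2.

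At the replication fork, 10 of 32 tested genes were lower and 2 higher in hy5, with a median of -0.19. These were 31.2% and 6.25% of the tested fork genes, beside 4189 lower and 4683 higher (22.6%) of all 20695 genes. The lowest p was that of POLE1A, the catalytic subunit of the leading-strand polymerase epsilon (-0.63 ± 0.10, adjusted p = 6.46e-06, edgeR). Next came POLA1, the catalytic subunit of polymerase alpha, which starts new strands (-0.64 ± 0.12, adjusted p = 0.000114, edgeR). In agb1, 1 fork gene was lower (8.41% of all genes were), the GINS subunit PSF1 (-0.45 ± 0.13). That call was lost with DESeq2, with the model with most reads and on leaving out any WT or agb1 library. In cry1 cry2 5 were lower and 1 higher, beside 25.8% and 25.6% of all genes. RPA3B (-0.68 ± 0.14) and the clamp loader subunit RFC4 (-0.50 ± 0.11) were named by the rule. In cry1 cry2 the 5 lower became 2 with the 1.5-fold minimum. The 1 higher became 0 with DESeq2 and 7 with library sizes alone. The count of lower fork genes in hy5 fell to 6 without WT replicate 1, to 5 without WT replicate 2, to 5 with DESeq2 and to 4 with the 1.5-fold minimum.

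The genes that supply deoxynucleotides and package new DNA were mixed. For comparison, 4189 of all 20695 genes were called lower and 4683 higher in hy5. The shares of all genes called lower and higher were 8.41% and 8.76% in agb1, and 25.8% and 25.6% in cry1 cry2. In hy5, RNR1, the large subunit of ribonucleotide reductase (-0.51 ± 0.08), and THY2 of thymidylate synthesis (-0.60 ± 0.15) were among 2 lower and 1 higher of 7, and FAS1 (-0.76 ± 0.13) and FAS2 (-0.63 ± 0.21), subunits of chromatin assembly factor 1, were the 2 of 8 lower, with 0 higher. In agb1, 1 gene of each list was lower: TSO2, a small subunit of ribonucleotide reductase (-0.32 ± 0.07), and FAS1 (-0.38 ± 0.13). The FAS1 call in agb1 was lost with DESeq2, with the model with most reads and on leaving out any WT or agb1 library, which left the TSO2 call in place. The 2 chromatin calls in hy5 became 1 with DESeq2, with the model with most reads and without WT replicate 1. In cry1 cry2, 2 of 7 nucleotide genes were higher and 2 lower, led by TK1A (0.73 ± 0.10) and RNR2A (-0.90 ± 0.13). There, 4 of 8 chromatin genes were higher and 0 lower, led by the histone H3.1 genes HTR3 (0.59 ± 0.09) and HTR1 (0.45 ± 0.07). The 4 higher became 1 with the 1.5-fold minimum and 6 with library sizes alone. The H3.1 genes code for the same protein, and how reads matching several of them were placed is not given.

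Among regulators of entry into S phase, 9 of 28 tested were lower and 2 higher in hy5, with a median of -0.32. Of all 20695 genes, 4189 were lower and 4683 higher in hy5. The 9 lower regulators became 5 with the 1.5-fold minimum. The D-type cyclins CYCD3;2 (-0.63 ± 0.07, adjusted p = 2.43e-08, edgeR) and CYCD3;3 (-0.60 ± 0.12) had the lowest p. CYCD3;2 was also lower in cry1 cry2 (-0.95 ± 0.07), as was the CDK inhibitor KRP4 (-0.46 ± 0.08). There 2 regulators were higher and 2 lower, beside 25.6% and 25.8% of all genes. The 2 higher became 0 with DESeq2, 1 without WT replicate 1, WT replicate 2 or cry1 cry2 replicate 1, and 7 with library sizes alone. In agb1, CDKA;1 (-0.25 ± 0.07) and CYCD1;1 (-0.29 ± 0.08) were the 2 lower genes, where 8.41% of all genes were lower and 8.76% higher. CYCD3;2, named here after its value was seen, was higher in agb1 (0.21 ± 0.07, adjusted p = 0.0282, edgeR). The 2 lower calls became 0 with DESeq2 and without WT replicate 1, and 1 without either agb1 library. The CYCD3;2 call in agb1 was lost with DESeq2, with library sizes alone, with the model with most reads and without WT replicate 1, WT replicate 2 or agb1 replicate 1.

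Genes of mitosis and cytokinesis were counted in the same way. In hy5, 2 of 20 were higher and 2 lower (over all genes 22.6% and 20%), with a median of -0.02; HINKEL, a kinesin of the cell plate (-0.50 ± 0.13), and CYCB2;3 (-0.42 ± 0.14) were lower. In agb1, 10 of the 20 were lower and 0 higher (over all genes 8.41% and 8.76%), with a median of -0.46, among them CDKB2;1 (-0.52 ± 0.09) and the syntaxin KNOLLE (-0.45 ± 0.08). In cry1 cry2, 6 were higher, near the 25.6% of all genes called higher there, and 0 lower (over all genes 25.8%), with a median of 0.23. Among the higher genes were CYCB1;4 (0.66 ± 0.10) and CYCB2;2 (0.77 ± 0.15). The summed mitotic level was 181 and 187 CPM in WT, 135 and 134 in agb1, 180 and 186 in hy5, and 222 and 216 in cry1 cry2. In hy5 the 2 higher calls were lost with DESeq2, without WT replicate 1 and without hy5 replicate 2. The 2 lower calls in hy5 became 1 with DESeq2, without WT replicate 2 and without hy5 replicate 1, and 0 with the 1.5-fold minimum. The count in agb1 fell to 5 without WT replicate 2, to 5 with DESeq2 and to 1 with the 1.5-fold minimum. The count in cry1 cry2 rose to 13 with library sizes alone. It fell to 4 without cry1 cry2 replicate 1 and to 3 with the 1.5-fold minimum. Each list was set against WT alone, and the difference between the lists was not tested.

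In the DNA damage response list, 4 of 11 genes were lower and 0 higher in hy5, beside 4189 lower and 4683 higher of all 20695 genes. The kinase ATM (-0.53 ± 0.08) and BRCA1 (-0.65 ± 0.21) were named by the rule. The count of 4 fell to 2 without either WT library, to 1 without hy5 replicate 2 and to 1 with DESeq2. GMI1, a gene induced by DNA breaks, was higher in agb1 (0.46 ± 0.12) and in cry1 cry2 (0.51 ± 0.11); the call in agb1 was lost without WT replicate 1, without agb1 replicate 1 and with the model with most reads. ATM was also lower in cry1 cry2 (-0.22 ± 0.08), where 2 of the 11 were higher and 2 lower (over all genes 25.6% and 25.8%). The 2 lower became 0 with DESeq2, with library sizes alone, without WT replicate 2 and without either cry1 cry2 library. The 2 higher became 1 with DESeq2, without WT replicate 1 and without cry1 cry2 replicate 1.

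**Figure D5:**
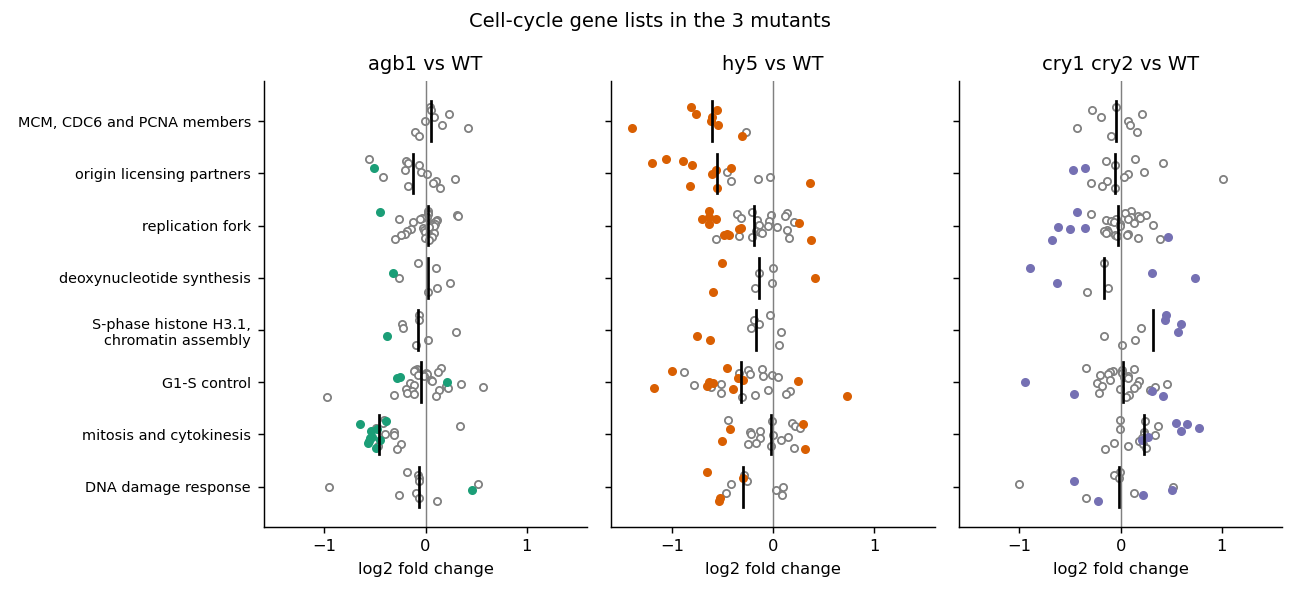
Log2 fold change against WT (x axis) of each tested gene (points) in the 9 replication genes and 7 related lists, in agb1, hy5 and cry1 cry2. Filled points passed at an adjusted p under 0.05 and open points did not, and black bars are medians: in hy5 the medians of the members and of the licensing partners are -0.61 and -0.56 and that of the mitosis list is -0.02, whereas in agb1 the mitosis median is -0.46.

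The E2F word was also looked up for these lists. It was upstream of 5 of 14 origin licensing partners (ORC1A, ORC2, ORC3, CDC6B and MCM8), 7 of 33 fork genes, both subunits FAS1 and FAS2, 2 of 29 entry regulators (RBR1 and CYCD3;3), 1 of 11 damage genes, 0 of 8 deoxynucleotide genes and 0 of 20 mitotic genes. Over the genome, 387 loci held the word, of which 304 were tested. With the members left out, 299 were tested, and in hy5 25.1% of these were called lower and 13.4% higher, beside 20% and 22.6% of all genes. In agb1 the same loci had 5.69% lower and 7.69% higher, and in cry1 cry2 23.4% lower and 60 of the 299 higher. The median of these loci in hy5 was -0.09. This set was looked at after the fall of the replication genes was known.

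Markers of tissues that contain dividing cells did not fall together in hy5. Of 5 tested shoot meristem genes, 3 were higher and 0 lower in hy5, led by KNAT1 (0.65 ± 0.07) and KNAT6 (0.42 ± 0.10). Of all 20695 genes, 4683 (22.6%) were higher and 4189 lower in hy5. The 3 higher became 1 with the 1.5-fold minimum. In cry1 cry2, 4 of the 5 were higher (25.6% of all genes were), including STM (1.16 ± 0.13). The summed level of the shoot meristem list was 56.7 and 63.0 CPM in WT, 81.4 and 81.9 in hy5, and 93.4 and 92.1 in cry1 cry2. The largest part of it was KNAT1, with 27.5 and 30.8 CPM in WT and 44.7 and 46.6 in hy5. STM had 5.41 and 5.73 CPM in WT and 6.98 and 7.19 in hy5. ANT, named after its value was seen, did not pass in hy5 (-0.16 ± 0.13). In agb1 the summed level was 51.6 and 52.5 CPM, with KNAT1 lower (-0.51 ± 0.08). Of 4 tested root meristem genes, 2 were higher and 1 lower in hy5. SHR was higher (0.66 ± 0.09) and PLT1, which marks the stem cell region of the root tip, lower (-1.37 ± 0.37, adjusted p = 0.00382, edgeR). PLT1 had 10 and 14 reads in hy5 and 35 and 36 in WT. With at least 5 CPM in 2 libraries the 1 lower became 0. Named after their values were seen, SCR was the other higher gene (0.19 ± 0.07), and PLT2 did not pass (-0.14 ± 0.35). In agb1, PLT2 was higher (0.96 ± 0.31, adjusted p = 0.0303, edgeR) and SHR lower (-0.32 ± 0.10), beside 8.76% and 8.41% of all genes. Both counts became 0 with DESeq2. In cry1 cry2, SHR was higher (0.78 ± 0.08) and 0 were lower (over all genes 25.6% and 25.8%). PLT1 did not pass in agb1 (0.64 ± 0.29) or cry1 cry2 (-0.67 ± 0.34). The share of dividing cells was not tested. WUS, CLV3, CUC2 and WOX5, markers of the stem cell centres and organ boundaries, had too few reads to be tested.

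Root markers moved with the genotypes too. In hy5, 6 of 10 were higher, among them the endodermal gene CASP1 (1.11 ± 0.06), and 4 root hair genes were lower. Of all 20695 genes, 4683 (22.6%) were higher and 4189 lower in hy5. In agb1, 7 of the 10 root markers were lower and 0 higher (over all genes 8.41% and 8.76%), with CASP1 at -0.80 ± 0.07 and PYK10 at -0.54 ± 0.04. In cry1 cry2, 6 were higher and 0 lower (over all genes 25.6% and 25.8%), with CASP5 at 2.17 ± 0.06 and CASP2 at 1.16 ± 0.07. The summed level of the root markers was 4410 and 4410 CPM in WT, 3030 and 3010 in agb1, 6960 and 7130 in hy5, and 7520 and 7380 in cry1 cry2. Nearly all of it was PYK10 (4140 and 4170 CPM in WT, 6520 and 6650 in hy5). The 4 root hair genes RHD2, COBL9, EXPA7 and EXPA18, named after their values were seen, changed by -1.41 to -0.92 in hy5, while their values in cry1 cry2 were -0.19 to 0.01 with no call. The part of root tissue in the values of the replication genes was not tested.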

How the data were processed

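Transcript levels were measured in 8 libraries, 2 per genotype. Per the file headers, the deposited tables give read counts and RPKM for each of 48321 transcript models; in 1 table the header of the RPKM column repeats that of the reads, and its unit was read from the values. The submitters' processing notes name Bowtie2 2.2.2 and TAIR10. The sources used here do not state the counting tool, the strand or the placing of reads that match several loci. Counts were summed over the models of each locus, and the RPKM the authors deposited was used for levels per length alone.

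Of 24741 loci with a read, 20695 passed filterByExpr (minimum count 10 and total 15). Tests used edgeR 4.0.16 under R 4.3.3 (TMM, quasi-likelihood F test, all 8 libraries in 1 fit with a mean per genotype, no replicate block). Benjamini-Hochberg adjusted p values were taken over all loci within each of 6 comparisons, and a gene was called at an adjusted p under 0.05. Standard errors were taken as the size of the log2 fold change over the root of F. CPM is per TMM-scaled library. The code was run on simulated counts with the same spread for every gene and few changed genes. Because these data differ in both, that run does not measure how the test performs here. The smallest and largest TMM factors were 0.931 and 1.12. No library was a duplicate of its replicate. P values measure the spread between libraries labelled as biological replicates. The fit leaves 4 residual degrees of freedom per gene, and edgeR moderates each gene's spread with that of all other genes. A p value therefore does not rest on that gene's replicates alone.

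The members and lists were chosen with earlier results of these data known. Genes were named by rule: the members; up to 2 called genes of lowest p per list and comparison with WT; the 5 loci most alike; the targeted genes. Names outside this rule are marked. RNR2B was not analysed here. Coordinates, symbols and sequences are from RefSeq (TAIR10.1), where 27420 loci had a matching tag. The alternatives run were DESeq2 1.42.0, RLE (median-ratio) scaling, library sizes alone, no filter, at least 5 CPM in 2 libraries, the compared genotypes alone, a replicate block, the model with most reads, organelle loci left out, a 1.5-fold minimum and each library left out.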

Additional observations from a re-analysis of the deposited data

How the results depend on the processing

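The 8 calls in hy5 against WT became 5 when at least 1.5-fold was required, 7 with DESeq2 and 6 with the model with most reads, and no member changed sign in that comparison under any alternative run. In cry1 cry2 against WT, library sizes alone gave 3 calls in place of 0. In agb1 against cry1 cry2, DESeq2 gave 1 and the 1.5-fold minimum 1 in place of 3. Leaving out each library in turn gave 0 to 1 calls in agb1 against WT, 0 to 1 in cry1 cry2 against WT (the 1 being MCM4 without WT replicate 1 in both) and 0 to 3 in agb1 against cry1 cry2. The labels do not state whether the replicate numbers pair the libraries. Same-numbered libraries deviated together with correlations of -0.069 to 0.130, which cannot settle whether they were paired. With a replicate block edgeR called 8 members in hy5 against WT and 0 in either other mutant, as without it.

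Signs changed only for values that were uncalled in both settings. In agb1 against WT, MCM6 was at 0.009 with RLE scaling and 0.0115 with DESeq2, and MCM2 at -0.017 and MCM3 at -0.0106 with library sizes alone. In cry1 cry2 against WT, library sizes alone put MCM2 at 0.14 and PCNA2 at 0.0837, and the model with most reads put MCM2 at 0.0682. In agb1 against cry1 cry2, library sizes alone put MCM2 at -0.157, MCM4 at -0.223, MCM7 at -0.18 and PCNA2 at -0.215, and the model with most reads put MCM2 at -0.0204. Leaving out each library in turn gave ranges in agb1 of -0.0279 to 0.123 (MCM2), -0.114 to 0.188 (MCM3) and -0.0593 to 0.0654 (MCM6), in cry1 cry2 of -0.168 to 0.0709 (MCM2), -0.0392 to 0.171 (MCM6) and -0.0586 to 0.228 (MCM7), and between agb1 and cry1 cry2 of -0.0194 to 0.22 (MCM2), -0.03 to 0.0854 (MCM4), -0.169 to 0.041 (MCM6) and -0.064 to 0.223 (MCM7). The cause was not tested.

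With library sizes alone, the share of all calls that were higher was 31.4% in place of 51.0% in agb1 against WT, 70.7% in place of 49.8% in cry1 cry2 against WT, 38.4% in place of 48.5% in agb1 against hy5, 27.5% in place of 49.7% in agb1 against cry1 cry2 and 28.2% in place of 53.0% in hy5 against cry1 cry2. The median of all genes then moved to -0.25 in agb1 against cry1 cry2 and to -0.18 in hy5 against cry1 cry2. Over all genes the calls in agb1 against WT fell from 3553 to 2124 with DESeq2 and 2350 without WT replicate 2. With the 1.5-fold minimum they were 1022, against WT 3311 of 8872 remained in hy5 and 5066 of 10634 in cry1 cry2, and between mutants 4635 of 10326 (agb1 and hy5), 6601 of 11985 (agb1 and cry1 cry2) and 4020 of 9046 (hy5 and cry1 cry2). Among the members, depth limits CDC6 most, and 2 libraries per genotype limit every comparison.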
